A study of Mus musculus with 4 samples.

Results

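The Hippo and YAP/TEAD genes described here are 10 of the 24346 gene rows in the expression table. They comprise the transcriptional coactivators Yap1 and Wwtr1 (the gene of TAZ), the DNA-binding factors Tead1, Tead2 and Tead3, the angiomotin-like scaffold genes Amotl1 and Amotl2, and the target genes Ctgf, Cyr61 and Ankrd1. The members were chosen by symbol as regulators and classic targets of one mechanosensing pathway, and all 10 symbols had a row. RNA was collected from mBMSCs, adherent stromal cells grown out of the bone marrow of 3-month-old C57BL/6 mice (C57BL/6J in the study's methods), at 72 h after transfection. In 2 samples the cells had received scrambled siRNA (siScr), and in 2 samples siRNA against Zbp1 (siZBP1). Strain, age, culture and transfection reagent were shared by both groups, no other allele or agent is named, and the sources used here do not say which siRNA against Zbp1 went into these libraries. The study's methods call the transfected mBMSCs duplicated, and the sources used here do not say whether the duplicates were separate animals or cell isolations, so p-values measure only the spread between these samples, which may be technical.

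The values are FPKM, fragment numbers scaled to transcript length and to sequencing depth. The smallest steps between low values gave a rough estimate of the depth, 11600000 to 19000000 fragments per sample. Zbp1, the targeted gene, was at 86.0 and 62.0 FPKM in the siScr samples and at 11.5 and 11.6 FPKM in the siZBP1 samples. Of 12 mesenchymal markers, all were detected, with Vim between 1352 and 1418 FPKM in every sample. Macrophage markers were abundant as well: all 15 with a row were detected, and their summed FPKM was 11191 and 12143 in siScr samples and 16262 and 15560 in siZBP1 samples. The largest part of that sum was Lyz2, at a mean of 3230 FPKM in siScr samples and 5636 FPKM in siZBP1 samples. Of 10 endothelial markers, Vwf (4.36 to 5.41 FPKM) and Kdr (2.30 to 3.08 FPKM) were the highest, and the other 8, which include Pecam1, Cdh5 and Tek, reached at most 1.06 FPKM. Of 10 adipocyte markers, Lpl (218 to 277 FPKM), Fabp4 (91.2 to 114 FPKM), Cebpa (53.2 to 61.8 FPKM) and Pparg (13.7 to 22.8 FPKM) were well expressed, Adipoq reached at most 0.219 FPKM, and Plin1, Cidec, Lep, Retn and Cfd were listed at 0. Pparg fell and Lpl rose by limma (adjusted p = 0.0181 and 0.0373), while the summed FPKM of the adipocyte list was 390 and 405 in siScr samples and 441 and 464 in siZBP1 samples.

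In the Hippo pathway, the kinases MST1/2 (genes Stk4 and Stk3) activate LATS1/2, which phosphorylate YAP and TAZ and keep them in the cytoplasm. When the kinases are less active, for instance in spread cells on a stiff matrix, YAP and TAZ enter the nucleus and drive transcription through TEAD factors, which bind DNA. Angiomotins hold YAP and TAZ in the cytoplasm or at junctions. In bone marrow stromal cells the pathway is known for coupling cell shape and matrix stiffness to the choice between bone and fat lineages. YAP and TAZ are controlled largely at the protein level, which mRNA values do not measure.

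Most of these genes were lower after Zbp1 depletion. Of the 10 members, 7 fell and 1 rose after depletion by limma at an adjusted p threshold of 0.05. The tool fits a linear model to each gene and shares variance between genes. Over all 11959 genes tested, those averaging 1 FPKM or more, the shares were 14.8% lower and 13.5% higher. The members that fell were Yap1, Wwtr1, Tead1, Amotl1, Amotl2, Ctgf and Cyr61, and the member that rose was Tead2. Tead3 and Ankrd1 did not pass the test. The median log2 change of the members was -0.79, against 0.0045 for all genes tested, both on the scale of log2(FPKM + 1). The members were chosen with earlier results of these data known. Contrasts between the members and all genes therefore describe the list and do not test it. In 9 members both siZBP1 samples lay below both siScr samples, which held for 33.7% of all genes tested. By the ratio of the group means, 6 members were over 1.5-fold lower (8.65% of genes tested) and 0 were over 1.5-fold higher. The count of lower members was 5 without siScr replicate 1, 7 without siScr replicate 2, 0 without siZBP1 replicate 1 and 3 without siZBP1 replicate 2, and the count of higher members was 0 without any of these samples. At an unadjusted limma p under 0.05, 7 to 8 members were lower and 0 to 1 were higher with a sample left out, when 14.7% to 20.8% of all genes tested were lower and 12.4% to 20.2% were higher at that threshold. With a sample left out, calls over all genes at the adjusted threshold also became fewer, most of all without a siZBP1 sample. The 10 members all passed the filter on low values, and Ankrd1 passed it only through the siScr samples, since its mean in siZBP1 samples was 0.942 FPKM. Because these are bulk cultures, fewer cells expressing a gene and less RNA per cell cannot be told apart.

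**Figure D1:**
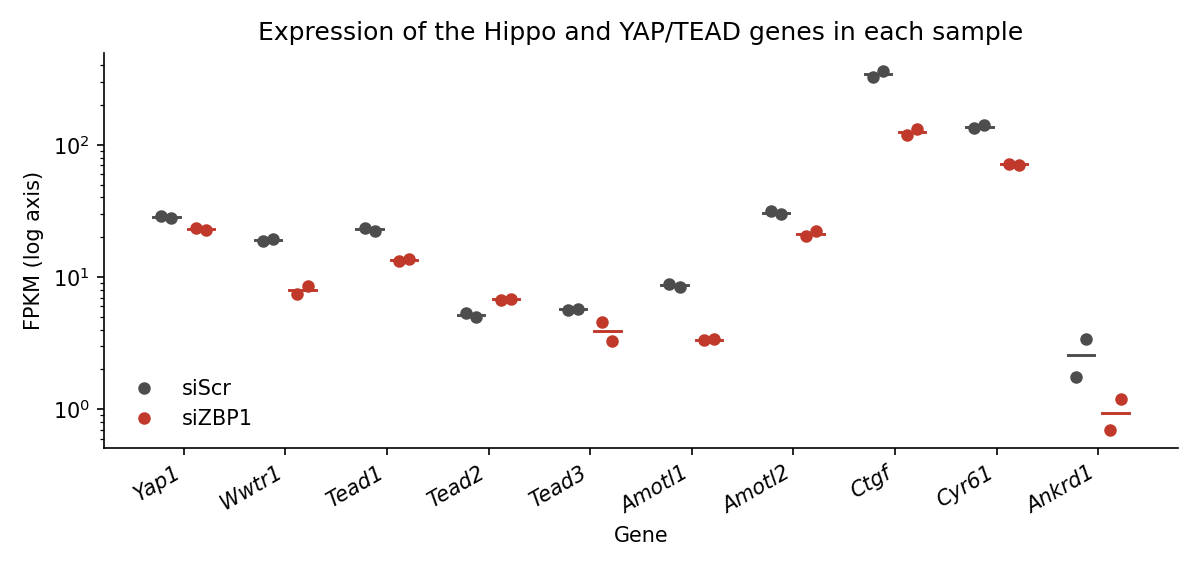
FPKM (log axis) of the 10 genes in each of the 4 samples, with siScr samples in grey and siZBP1 samples in red; points are single samples and short lines are group means (n = 2). The red points lie below the grey points for every gene except Tead2, where both lie above.

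Both coactivator genes fell, Wwtr1 by more than Yap1 in size, although the difference between their changes was not tested. Yap1 (chromosome 9 of GRCm38, 7931999 to 8004596, minus strand) was at 29.2 and 27.8 FPKM in siScr samples and at 23.4 and 22.7 FPKM in siZBP1 samples. The groups did not overlap, and the mean was 1.23-fold lower after depletion. The annotated exons of Yap1 share 116 bases with the gene model Gm20416 on the opposite strand, which has no row in the table. On the log2 scale limma put the change of Yap1 at -0.29 (standard error, SE, 0.05, adjusted p = 0.0191). Wwtr1 (chromosome 3, 57455649 to 57575910, minus strand) encodes TAZ, the paralog of YAP that binds the same TEAD partners and is known as a coactivator of RUNX2. It was at 18.7 and 19.5 FPKM in siScr samples and at 7.50 and 8.57 FPKM in siZBP1 samples. Every siZBP1 value was thus far under every siScr value, with a 2.38-fold lower mean and a limma log2 change of -1.16 (SE 0.08, adjusted p = 0.00355).

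The makeup of the YAP and TAZ pair moved with these levels. Wwtr1 made up 39.1% and 41.2% of the summed FPKM of both genes in siScr samples, and 24.3% and 27.4% in siZBP1 samples. The sum itself was 47.8 and 47.4 FPKM in siScr samples and 30.9 and 31.3 FPKM in siZBP1 samples. FPKM are scaled to transcript length, so that levels of different genes can be set side by side, although protein levels were not measured. The shares are described without a test, because the smallest two-sided p of an exact permutation over 2 and 2 samples is 0.333.

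Of the TEAD genes of the list, Tead1 fell, Tead2 rose and Tead3 did not pass the test. Tead1 (chromosome 7, 112679318 to 112906807, plus strand), the most abundant of them, was at 23.7 and 22.3 FPKM in siScr samples and at 13.1 and 13.7 FPKM in siZBP1 samples. Its groups were well apart, with a mean 1.71-fold lower after depletion and a limma log2 change of -0.73 (SE 0.06, adjusted p = 0.00460). Tead2 (chromosome 7, 45215753 to 45233644, plus strand) went the other way: it was at 5.33 and 5.02 FPKM in siScr samples and at 6.71 and 6.83 FPKM in siZBP1 samples. The mean was 1.31-fold higher, and the limma log2 change of 0.33 (SE 0.08, adjusted p = 0.0361) was the least secure of the calls, being lost without any 1 of the samples (adjusted p from 0.0740 to 0.173). The annotated exons of Tead2 share 13 bases with those of Cd37 on the opposite strand, a leukocyte tetraspanin gene that was at 51.8 and 47.2 FPKM in siScr samples and at 77.5 and 73.1 FPKM in siZBP1 samples. The sources used here do not say whether reads were counted by strand, and the part of Cd37 reads in the Tead2 values was not tested.

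Tead3 (chromosome 17, 28331671 to 28350817, minus strand) was at 5.65 and 5.72 FPKM in siScr samples and at 4.54 and 3.29 FPKM in siZBP1 samples. Both siZBP1 values were lower, but they differed from each other by more than the nearer one did from the siScr values, and the limma log2 change of -0.46 (SE 0.14) did not pass (adjusted p = 0.0791). Tead4, the remaining factor of the family and no member of the list, was at 0.319 and 0.429 FPKM in siScr samples and at 0.104 and 0.0479 FPKM in siZBP1 samples. These Tead4 values stand for an estimated 3 to 25 fragments per sample and were too low to be tested. As a share of the summed FPKM of the 4 TEAD genes, Tead1 was at 67.7% and 66.6% in siScr samples and at 53.6% and 57.5% in siZBP1 samples. Tead2 took 15.2% and 15.0% of the sum in siScr samples and 27.4% and 28.6% in siZBP1 samples. The summed TEAD level was 35.0 and 33.4 FPKM in siScr samples and 24.5 and 23.9 FPKM in siZBP1 samples, so the family as a whole stood lower while the place of Tead2 in it stood higher.

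**Figure D2:**
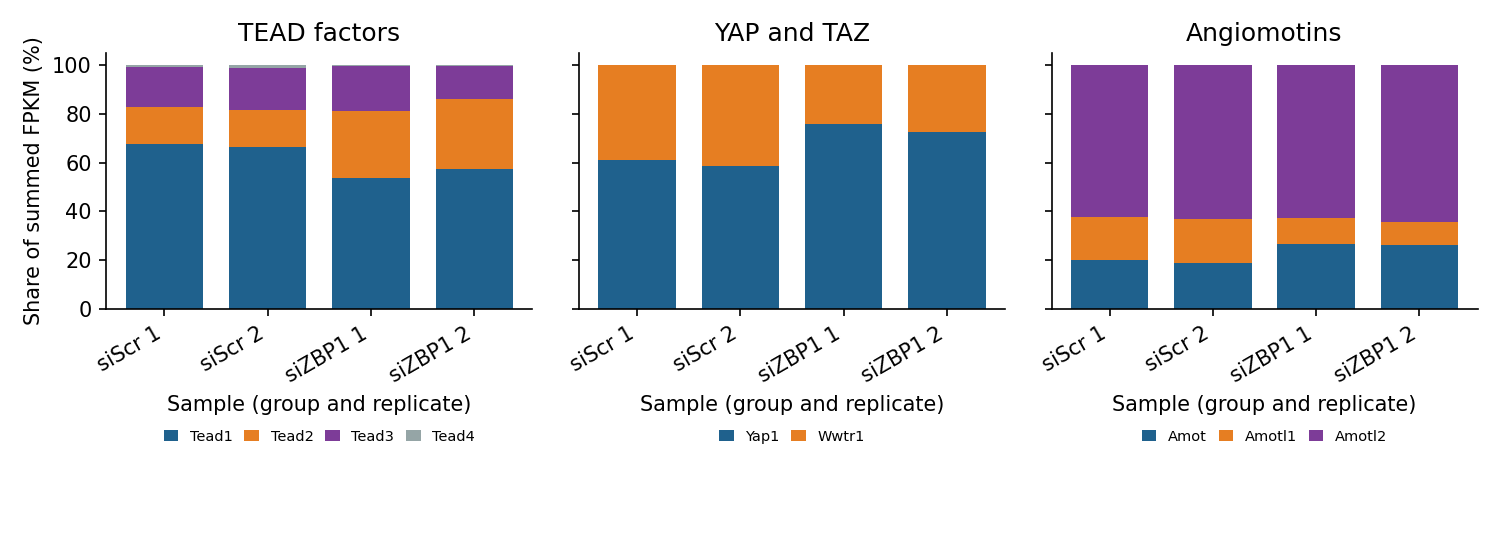
Share (%) of each gene in the summed FPKM of its family in each of the 4 samples, for the TEAD factors, for YAP and TAZ, and for the angiomotins; each bar is 1 sample. The siZBP1 bars hold a larger Tead2 and a smaller Tead1 share, a smaller Wwtr1 share and a smaller Amotl1 share than the siScr bars.

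The angiomotin-like genes were both lower. Amotl1 (chromosome 9, 14541966 to 14645056, minus strand) encodes a junctional scaffold that binds the WW domains of YAP. It was at 8.86 and 8.42 FPKM in siScr samples and at 3.34 and 3.37 FPKM in siZBP1 samples, with replicates close to each other in both groups. The mean was 2.58-fold lower, with a limma log2 change of -1.15 (SE 0.08, adjusted p = 0.00340). The study lists Amotl1 among its down-regulated Wnt genes, from these same data. Amotl2 (chromosome 9, 102716672 to 102733418, plus strand) encodes a related scaffold and is itself a widely used YAP target. It was at 31.4 and 29.8 FPKM in siScr samples and at 20.3 and 22.1 FPKM in siZBP1 samples. The groups were separate and the mean 1.44-fold lower, with a limma log2 change of -0.51 (SE 0.06, adjusted p = 0.00976). Amot, the founding gene of the family and no member of the list, overlapped between the groups, at 10.1 and 8.95 FPKM in siScr samples and at 8.61 and 9.00 FPKM in siZBP1 samples, and did not pass the test (limma log2 change -0.10, adjusted p = 0.408). Amotl1 accordingly took 17.6% and 17.9% of the summed FPKM of the family in siScr samples and 10.4% and 9.78% in siZBP1 samples. Amotl2 held 62.3% to 64.1% of the sum in all 4 samples.

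The target genes included the most abundant members. Ctgf (now Ccn2, chromosome 10, 24595442 to 24598683, plus strand) encodes connective tissue growth factor, a secreted matricellular protein of the CCN family. It was at 323 and 361 FPKM in siScr samples and at 119 and 132 FPKM in siZBP1 samples. The fall of Ctgf was the largest among the members on the limma scale, 2.72-fold by the means and -1.44 in log2 change (SE 0.08, adjusted p = 0.00277), and Ctgf ranked 188 of the 11959 genes tested from the lowest log2 change up. The annotated exons of Ctgf share 665 bases with the gene model Gm15270 on the opposite strand, which has no row in the table, so its reads cannot be told apart from those of Ctgf if strand was not used. Cyr61 (now Ccn1, chromosome 3, 145646976 to 145649981, minus strand) encodes a related matricellular protein. It was at 133 and 141 FPKM in siScr samples and at 71.0 and 70.9 FPKM in siZBP1 samples. Its replicates nearly coincided in siZBP1 cells, with a mean 1.93-fold lower and a limma log2 change of -0.94 (SE 0.04, adjusted p = 0.00231). The ratio of Ctgf to Cyr61 was 2.42 and 2.57 in siScr samples and 1.68 and 1.87 in siZBP1 samples.

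Ankrd1 (chromosome 19, 36111961 to 36120099, minus strand), which encodes an ankyrin repeat protein of muscle and a standard YAP reporter gene, was the lowest of the members. It was at 1.76 and 3.39 FPKM in siScr samples and at 0.696 and 1.19 FPKM in siZBP1 samples. The groups did not overlap and the mean was 2.73-fold lower, but the replicates of each group differed strongly, and the limma log2 change of -0.85 (SE 0.27) did not pass (adjusted p = 0.0828). By the rough depth estimate, Ankrd1 rested on 51 and 130 fragments in the siScr samples and on 16 and 44 fragments in the siZBP1 samples. Each other member rested on an estimated 146 fragments or more in every sample. The paralogs Ankrd2 and Ankrd23 were at 0.0349 to 0.194 FPKM and at 0.844 to 1.39 FPKM over all samples, and the groups overlapped for both.

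**Figure D3:**
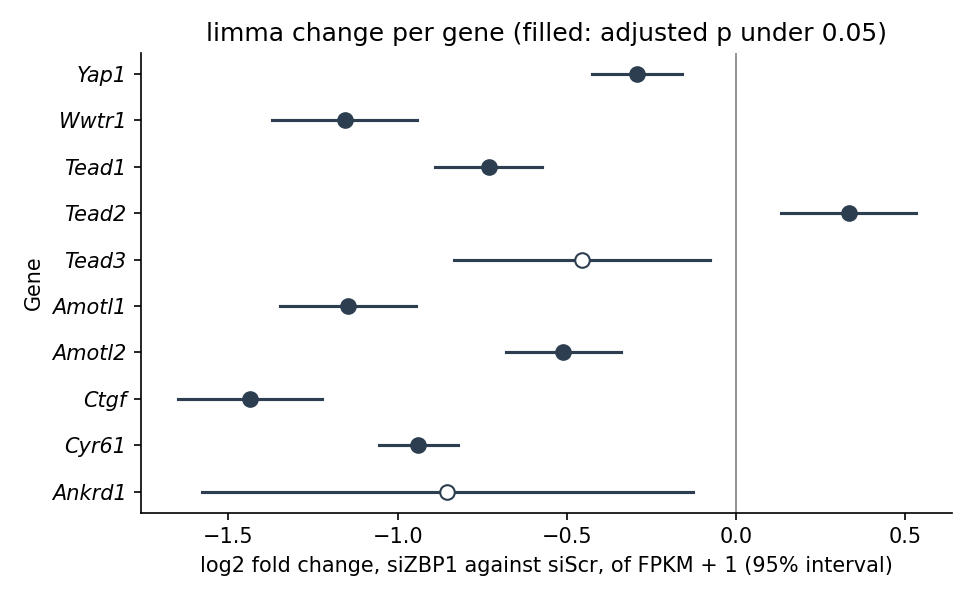
limma log2 change of FPKM + 1 in siZBP1 against siScr samples (n = 2 each) for each of the 10 genes, with 95% intervals; filled points have an adjusted p under 0.05. Ctgf lies lowest at -1.44, Tead2 is the single gene above 0 at 0.33, and the intervals of Tead3 and Ankrd1 are the widest.

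In siScr samples the members ranked, from high to low FPKM, Ctgf, Cyr61, Amotl2, Yap1, Tead1, Wwtr1, Amotl1, Tead3, Tead2 and Ankrd1, and no neighbours in that order overlapped. In siZBP1 samples Yap1 stood above Amotl2, and Tead2 stood above Tead3 and Amotl1. The ranges of Tead3 and Amotl1 overlapped in siZBP1 samples, and no other neighbours did. Ctgf and Cyr61 lay above 98.4% and 95.6% of the genes tested in their siScr mean, whereas Tead2 lay above 25.9% and Ankrd1 above 12.7%.

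TEAD factors recognize the bases GGAATG, and the promoters of the target genes are shown because these genes are the readout by which YAP and TEAD activity is usually judged. Promoter windows of 300 bases, 250 before and 50 after the start site, were taken from RefSeq (GRCm38.p6) for the 8 members with an entry, which leaves out Tead1 and Ctgf. The 250 bases before the start site follow, read 5′ to 3′ along the gene, with each GGAATG or its reverse complement CATTCC in capitals. They lie at chr3:145649986-145650235 (minus strand) for Cyr61, chr19:36119845-36120094 (minus strand) for Ankrd1 and chr9:102717554-102717803 (plus strand) for Amotl2.

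Cyr61: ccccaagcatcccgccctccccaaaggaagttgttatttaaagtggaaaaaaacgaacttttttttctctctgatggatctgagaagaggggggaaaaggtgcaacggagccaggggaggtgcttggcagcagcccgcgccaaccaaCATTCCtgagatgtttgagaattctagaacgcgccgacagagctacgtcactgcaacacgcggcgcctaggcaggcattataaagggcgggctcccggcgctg

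Ankrd1: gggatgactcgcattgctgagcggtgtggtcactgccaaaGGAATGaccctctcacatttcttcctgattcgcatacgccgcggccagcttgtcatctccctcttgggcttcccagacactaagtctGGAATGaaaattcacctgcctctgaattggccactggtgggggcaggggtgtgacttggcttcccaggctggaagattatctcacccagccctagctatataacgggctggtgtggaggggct

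Amotl2: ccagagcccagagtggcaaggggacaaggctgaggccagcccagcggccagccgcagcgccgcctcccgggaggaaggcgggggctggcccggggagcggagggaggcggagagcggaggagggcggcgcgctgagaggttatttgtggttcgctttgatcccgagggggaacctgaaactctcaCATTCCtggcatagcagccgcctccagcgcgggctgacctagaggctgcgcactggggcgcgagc

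Positions are counted from the start site, the last base before it being -1. In Cyr61 the match lies at -103 to -98, on the opposite strand. Ankrd1 holds 2 matches on its own strand, at -210 to -205 and at -123 to -118, and Amotl2 holds 1 at -65 to -60 on the opposite strand. Of the regulators, Yap1 holds a match at -141 to -136, and Wwtr1 holds 1 that falls in both of its overlapping annotated windows, at -136 to -131 from one start site and -170 to -165 from the other. Tead3 holds 4 matches, in 2 of its 3 annotated windows. No match to these letters was in the windows of Amotl1 and Tead2. In all, 6 of the 8 members held the letters on either strand in at least 1 window, against 16.6% of 27025 genes with a promoter entry. This contrast is a description, since Cyr61 and Ankrd1 were chosen as known targets of the pathway and Amotl2 is a known target as well. The other motifs searched on both strands were the AP-1 motif TGANTCA, held by 8.97% of genes, and the CArG box bound by SRF, held by 1.81%. The windows of 0 members held either motif. A match of letters is a description of sequence and does not show binding.

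Genes of the kinase core, which restrains YAP and TAZ, moved in both directions. Of 8 genes of the kinase core, all tested, 2 were lower, 3 were higher and 3 did not pass. Their median log2 change was 0.12. Among all genes tested, 14.8% were lower and 13.5% were higher at the adjusted threshold. Sav1, the scaffold of the MST kinases, fell from a mean of 34.2 to 25.6 FPKM (limma log2 change -0.40, adjusted p = 0.00972). Lats2, a kinase of YAP and TAZ that is also their target gene, fell from 20.2 to 15.2 FPKM (limma log2 change -0.39, adjusted p = 0.0102). Mob1b, a LATS cofactor, rose from 16.1 to 21.8 FPKM (limma log2 change 0.42, adjusted p = 0.0187), and Nf2 (Merlin), which recruits LATS to the membrane, rose from 28.8 to 37.7 FPKM (limma log2 change 0.38, adjusted p = 0.00999). Stk4 was the other gene that rose, while Stk3, Lats1 and Mob1a did not pass the test. Without siZBP1 replicate 1 or without siZBP1 replicate 2, 0 of the core genes passed in either direction by limma (2 lower and 3 higher at an unadjusted p under 0.05 in both settings), and without siScr replicate 1 the higher count was 1.

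Among upstream regulators, 28 of the 33 with a row were tested, of which 7 were lower and 2 were higher. Their median log2 change was -0.05. The shares over all genes tested, for this list and the next, were 14.8% lower and 13.5% higher. The largest changes were those of Fat1, an atypical cadherin, with a limma log2 change of -0.84 (adjusted p = 0.00639), Dlg5, a polarity scaffold, with -0.65 (adjusted p = 0.00938), and the kinase gene Mink1 with -0.52 (adjusted p = 0.00884). These lower counts became 4 without siScr replicate 1 and 0 without either siZBP1 replicate (7 and 6 at an unadjusted limma p under 0.05), and the higher counts became 1 or 0 without each sample (2 each at the unadjusted threshold). A list of 11 genes held Tead4, the Vgll cofactor genes and the transcription factor genes Tcf7, Smad2, Smad3, Jun, Fosl1 and Runx2. The study counts Tcf7 among Wnt signaling genes and Runx2 among osteogenesis genes, so the list is not one of TEAD cofactors alone. Of these 11 genes, 8 were tested. By limma 4 were lower (Tcf7, Runx2, Fosl1 and Vgll3) and 0 were higher (1 at an unadjusted p under 0.05). Fosl1 passed the filter on low values only through the siScr samples, its mean in siZBP1 samples being 0.810 FPKM. With a minimum mean of 5 FPKM, 6 genes of the list were tested, of which 2 were lower and 1 was higher. The lower count was 2 without siScr replicate 1 and 0 without either siZBP1 replicate (4 each at an unadjusted p under 0.05). Vgll3, a cofactor that binds TEAD in place of YAP, fell from 38.2 to 27.0 FPKM (limma log2 change -0.49, adjusted p = 0.00608). Vgll4, a TEAD repressor, did not pass the test (log2 change -0.09, adjusted p = 0.312).

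Beyond Ctgf, Cyr61, Ankrd1 and Amotl2, a wider list of YAP target genes was mixed. Of its 20 other genes, 6 were lower, 2 were higher and 12 did not pass, beside 14.8% lower and 13.5% higher over all genes tested. Their median log2 change was -0.07, whereas the median of the full list of 24 was -0.18. F3, the gene of tissue factor, fell from 4.96 to 1.20 FPKM (limma log2 change -1.43, adjusted p = 0.00610), and Fjx1 fell from 4.16 to 1.30 FPKM (limma log2 change -1.17, adjusted p = 0.00613). Axl, Asap1, Tgfb2 and Lats2 fell by less, with log2 changes from -0.39 to -0.29. Nt5e, which encodes the surface enzyme CD73, rose from 4.11 to 21.0 FPKM (limma log2 change 2.16, adjusted p = 0.00954), and Dock5 was the other gene that rose. Over the full list, the lower count of 9 became 6 without siScr replicate 1, 0 without siZBP1 replicate 1 (10 at an unadjusted limma p under 0.05) and 2 without siZBP1 replicate 2, and the higher count of 2 became 1 without either siScr replicate and 0 without either siZBP1 replicate (1 each at the unadjusted threshold). In the CCN family 5 of the 6 genes were tested and lower, Ctgf and Cyr61 along with Wisp1, Wisp2 and Nov, with log2 changes from -1.73 (Wisp2) to -0.81 (Nov). Nov passed the filter only through the siScr samples, its mean in siZBP1 samples being 0.970 FPKM, and with a minimum mean of 5 FPKM the other 4 were tested and lower. Wisp3 was too low to be tested. Wisp1 is also among the down-regulated Wnt genes of the study. Leaving out siZBP1 replicate 1 brought the CCN count to 0, leaving out siZBP1 replicate 2 brought it to 3, and it was 5 at an unadjusted limma p under 0.05 in both settings. The summed FPKM of the CCN genes was 678 and 723 in siScr samples and 273 and 291 in siZBP1 samples.

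Ctgf, Cyr61 and Ankrd1 are also known to respond to SRF and its MRTF coactivators, which read actin dynamics. The part of SRF and MRTF in the changes of these 3 genes was not tested. Of 17 SRF/MRTF genes, 14 were lower and 0 were higher by limma (also 14 and 0 at an unadjusted p under 0.05), with a median log2 change of -1.08. Over all genes tested, 14.8% were lower and 13.5% were higher at the adjusted threshold. The largest falls were those of the smooth muscle genes Cnn1 (limma log2 change -3.19, adjusted p = 0.00267), Actg2 (-3.07, adjusted p = 0.000856) and Tagln (-2.74, adjusted p = 0.00150). Srf itself fell from 13.9 to 8.36 FPKM (limma log2 change -0.67, adjusted p = 0.00718), and the coactivator genes Mkl1 and Mkl2 overlapped between the groups. Leaving out siZBP1 replicate 1 brought the lower count to 8, and leaving out siZBP1 replicate 2 brought it to 9.

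**Figure D4:**
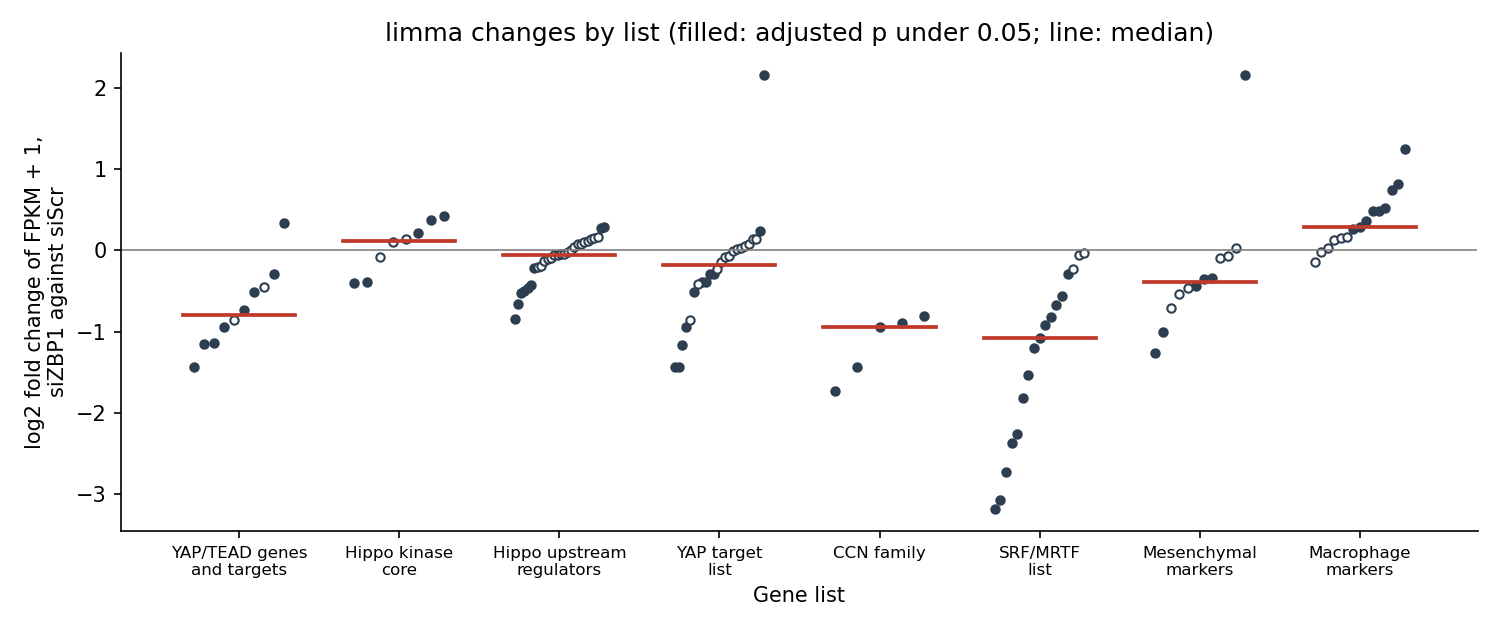
limma log2 change of FPKM + 1 in siZBP1 against siScr samples for each tested gene of 8 lists; points are genes, filled at an adjusted p under 0.05, and red lines are list medians. The YAP/TEAD genes, the CCN family and the SRF/MRTF list have medians of -0.79, -0.94 and -1.08, and the kinase core and macrophage markers have medians of 0.12 and 0.28.

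Markers of cell types moved beside these genes. Of the 15 tested macrophage markers, 9 were higher, 0 were lower by limma (10 and 1 at an unadjusted p under 0.05) and 6 did not pass, with a median log2 change of 0.28, from -0.15 (Ctss) to 1.25 (Mrc1). Adgre1, a defining macrophage gene, was at 303 and 279 FPKM in siScr samples and at 313 and 320 FPKM in siZBP1 samples, and did not pass the test (limma adjusted p = 0.165). Of the 12 mesenchymal markers, 5 were lower (Col1a1, Prrx1, Pdgfrb, Cd44 and Eng), 1 (Nt5e) was higher and 6 did not pass. The median log2 change of the mesenchymal markers was -0.39. For both lists, the shares over all genes tested were 14.8% lower and 13.5% higher. The calls of both lists were lost without either siZBP1 replicate, in fits where that group holds a single sample. The summed FPKM of the mesenchymal markers was 7068 and 6088 in siScr samples and 4706 and 4749 in siZBP1 samples, most of which came from Col1a1 and Col1a2. The log2 changes of the markers that fell ran from -1.26 (Col1a1) over -0.44 (Pdgfrb) and -0.35 (Cd44) to -0.34 (Eng). Prrx1 fell from 47.5 to 23.2 FPKM. Of the called members, Wwtr1, Tead1, Amotl1, Amotl2 and Cyr61 lay in that span. Ctgf (-1.44), Yap1 (-0.29) and Tead2 (0.33) lay outside it. The span leaves out the marker that rose, Nt5e (2.16), and those that did not pass. Of the markers that did not pass, Pdgfra had a log2 change of -0.70, Thy1 of -0.53, Ly6a of -0.46, Col1a2 of -0.09, Twist1 of -0.06 and Vim of 0.02. The part of the cell makeup of the cultures in the changes of the YAP/TEAD genes was not tested.

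**Figure D5:**
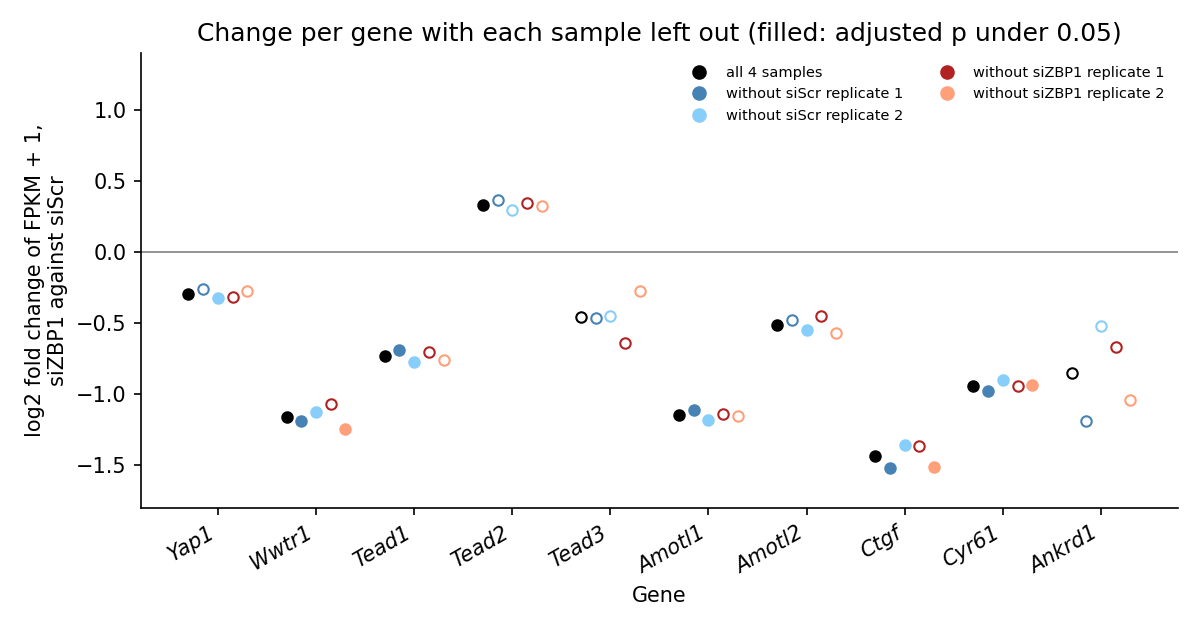
limma log2 change of FPKM + 1 for each of the 10 genes with all 4 samples and with each sample left out in turn; filled points have an adjusted p under 0.05. No gene changes sign, the calls of all genes are lost without siZBP1 replicate 1, and Ankrd1 moves most, from -1.19 to -0.52.

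With each sample left out in turn, no member changed sign. Ctgf stayed between -1.52 and -1.36 in log2 change, Wwtr1 between -1.24 and -1.07, Amotl1 between -1.18 and -1.11, and Cyr61 between -0.98 and -0.90. Without siZBP1 replicate 1 their limma adjusted p lay between 0.0555 and 0.0618, just over the threshold. Wwtr1, Ctgf and Cyr61 still passed without siZBP1 replicate 2 (limma adjusted p of 0.0425, 0.0402 and 0.0460), and Amotl1 did not (0.0519). Yap1 and Amotl2 passed only with siScr replicate 2 left out, and Tead1 passed without either siScr replicate and lost the threshold without either siZBP1 replicate. In these fits the group with a single sample left takes its spread from the other group.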

How the data were processed

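Per the study's methods, the authors prepared TruSeq libraries, mapped reads to mm10 with TopHat and deposited FPKM per gene, which the methods credit to HTSeq. The submitters' processing notes name TopHat and Cufflinks, and the annotation and any filter are not given in the sources used here. The authors' group means were checked to equal those of the replicates, and no other column was used.

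Genes whose FPKM averaged 1 or more over the 4 samples (11959) were fitted on the log2(FPKM + 1) scale by limma 3.58.1 in R 4.3.3, with the variance trend on, group as the only term and Benjamini-Hochberg adjustment at 0.05. The fit was tested on simulated data with independent noise. Fewer genes changed there than were called here. Each changed by more than Yap1, Tead1, Tead2, Amotl2 or Cyr61 did, so changes as small as theirs were not covered. A fold change on this scale understates the change of low genes. Depth was estimated from the lowest values of 1230 genes with 1 annotated transcript, and gives no counting interval. Positions are from GENCODE M21 (GRCm38). The members and lists were chosen with earlier results of these data known. Genes named beyond the members and their families are, in each pathway list, the 3 with the largest change past the threshold; others, Cd37 included, were named after their values were seen. The planned comparison of proteins and search for siRNA seed matches were not made. Tables and plots were made with pandas 2.3.3 and matplotlib 3.10.9 (Python 3.11.15).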

Additional observations from a re-analysis of the deposited data

How the results depend on the processing

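Over 8 settings with all 4 samples (pseudocounts of 0.1 and 5, no filter, a minimum mean of 5 FPKM, quantile normalization, median-ratio scaling, no variance trend and a replicate block), 61 of 64 values of the called members kept the threshold by limma and 0 changed sign. The 3 that did not were all of Tead2, so the count of higher members was 0 without the filter, with the minimum of 5 FPKM and with the replicate block (limma adjusted p = 0.0707, 0.0640 and 0.0624). The sources used here do not say whether same-numbered samples were paired. Deviations of same-numbered samples from their group means correlated at -0.06 over the genes tested, which does not settle whether they were. With the replicate block Ankrd1 passed (adjusted p = 0.0224), 8 members were lower, and the genes of the pathway lists that rose numbered 4 in place of 7. With 1 sample left out, lower members ranged from 0 to 7 and higher members from 0 to 0, lower genes of the pathway lists from 8 to 33 and higher ones from 0 to 3, and all lower genes from 48 to 1467 and all higher genes from 22 to 1248. Fewer samples are part of those settings. Without a siScr sample 12 of 16 values of the called members stayed past the threshold, and without a siZBP1 sample 3 of 16 did. By the ratio of means, 6 to 7 members were over 1.5-fold lower in each pair of samples. Ankrd1, at an estimated 16 to 130 fragments, is the member that depth limits most.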

Other observations

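The genes whose profile over the 4 samples lay nearest to that of Ctgf were Acta1, Synpo and Gng10, by the root mean square distance of centred log2(FPKM + 1) among 11958 other genes. Acta1, the skeletal muscle actin gene, was at 2.96 and 3.51 FPKM in siScr samples and at 0.462 and 0.639 FPKM in siZBP1 samples, at a distance of 0.0129 log2 units. Synpo, which encodes the actin-associated protein synaptopodin, was at 6.64 and 7.55 FPKM in siScr samples and at 1.94 and 2.19 FPKM in siZBP1 samples. Gng10, a G protein gamma subunit gene, was at 49.3 and 54.7 FPKM in siScr samples and at 16.7 and 18.4 FPKM in siZBP1 samples. With 4 samples, a near profile mostly reflects a change of like size between the groups.

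Of the upstream Hippo regulators, 5 were too low to be tested. Rassf6 was at 0.698 and 0.960 FPKM in siScr samples and at 0.137 and 0.116 FPKM in siZBP1 samples. Wwc1 (Kibra) was at 0.317 and 0.312 FPKM in siScr samples and at 0.0653 and 0.267 FPKM in siZBP1 samples. Dchs1 (0.568 and 0.597 FPKM in siScr samples, 0.462 and 0.585 FPKM in siZBP1 samples) and Map4k1 (0.638 and 0.584 FPKM in siScr samples, 0.622 and 0.480 FPKM in siZBP1 samples) overlapped between the groups. Crb3 was listed at 0 in all samples except siZBP1 replicate 2, at 0.048 FPKM. Of the TEAD cofactor genes, Vgll1 and Vgll2 were listed at 0 in all samples.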
